A study of Mus musculus with 8 samples.

Results

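The heat shock chaperones described here are 10 genes of the deposited count table, chosen by symbol: 6 stress-inducible chaperones (Hspa1a, Hspa1b, Hsph1, Dnajb1, Hsp90aa1 and Hspb8), 3 constitutive ones (Hspa8, Hsp90ab1 and Hspd1) and the transcription factor Hsf1. They are 10 of the 54532 genes in the table, and all 10 had enough reads to be among the 15857 genes tested. RNA was sequenced from lens capsules of wild-type C57BL/6 mice aged 6 to 8 weeks, 4 libraries of the sham group and 4 of the injury-induced ASC group, all collected 7 days after surgery. The submitters describe ASC as a model of fibrotic cataract. In ASC a hypodermic needle passed through the cornea opened the centre of the anterior lens capsule, and in sham the cornea was cut and the capsule stayed closed. The labels call the replicates biological and do not say whether capsules were pooled, so p-values measure the spread between these libraries. The capsule preparation holds the lens epithelium, whose defining genes Pax6 (455 ± 20.3 CPM in sham, where CPM is the read count scaled to library size) and Foxe3 (329 ± 11.8 CPM) were abundant (SD, n = 4).

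Molecular chaperones bind unfolded or newly made proteins and help them to fold, refold or be degraded. In heat, injury or other protein-damaging stress the heat shock factor Hsf1, itself held inactive at rest, binds short repeated sequence units in promoters and switches on the inducible chaperones, while their constitutive relatives are made in unstressed cells. The lens depends on chaperones because its fibre cells keep their proteins for life, and its alpha crystallins are themselves small heat shock proteins. The contrast of ASC with sham asks how the expression of these genes differs in the injured capsule, and whether inducible and constitutive chaperones differ alike.

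The units that heat shock factors bind are alternating GAA and TTC triplets, so the annotated promoters were searched for the letters GAANNTTC or TTCNNGAA (2 units) and for GAANNTTCNNGAA or TTCNNGAANNTTC (3 units, which contain the 2-unit letters). Each pair of letter strings covers both strands. RefSeq promoter windows on GRCm38.p6, which run from 250 bases before an annotated start to 50 after it, were matched for 6 of the 10 genes. Hspa8, Hsp90aa1, Hsp90ab1 and Hsf1 had no entry. Of the 6 genes, 5 held a 2-unit match in a window and 2 a 3-unit match, beside which 15.1% of all 32851 windows held 2 units and 0.603% held 3. These are unlike units, since the genes are counted over all their windows. Hsph1, Dnajb1 and Hspd1 had 2 windows each, and Hspd1 matched in only 1 of them. Hspa1a and Hspa1b, near-identical copies, are counted apart. Dnajb1 was the gene without a match in either of its windows. Below are the bases before the start of Hspa1a (chr17:34972157-34972406, minus strand) and Hspa1b (chr17:34959239-34959488, minus strand), shown because these near-identical copies had the widest fold changes of the 10 genes. Hspb1 (chr5:135887719-135887918, plus strand) and Hspe1 (chr1:55087948-55088147, plus strand) are shown because they are compared with the 10 genes further on. Short stretches are given for Hsph1 (chr5:149636287-149636306, minus strand), Hspb8 (chr5:116422847-116422870, minus strand) and Bag3 (chr7:128523610-128523632, plus strand), to show matches that lie past the start; Hsph1 also holds a 2-unit match before it that is not shown, beginning at base -33 of its first window. All are written 5′ to 3′, and capitals mark the 2-unit and 3-unit matches.
Hspa1a: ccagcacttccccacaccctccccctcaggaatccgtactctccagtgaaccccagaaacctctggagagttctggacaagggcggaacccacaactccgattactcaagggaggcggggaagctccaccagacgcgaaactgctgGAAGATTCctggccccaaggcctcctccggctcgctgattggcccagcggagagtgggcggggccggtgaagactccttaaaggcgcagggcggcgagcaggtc
Hspa1b: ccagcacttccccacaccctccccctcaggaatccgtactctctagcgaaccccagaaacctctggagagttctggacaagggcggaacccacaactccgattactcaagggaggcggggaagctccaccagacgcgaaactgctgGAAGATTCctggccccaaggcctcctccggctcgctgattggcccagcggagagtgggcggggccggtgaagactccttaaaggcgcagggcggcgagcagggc
Hspb1: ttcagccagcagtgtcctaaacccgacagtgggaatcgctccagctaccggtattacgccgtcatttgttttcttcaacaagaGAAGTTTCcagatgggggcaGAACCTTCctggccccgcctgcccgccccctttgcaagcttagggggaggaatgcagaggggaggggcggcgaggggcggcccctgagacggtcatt
Hspe1: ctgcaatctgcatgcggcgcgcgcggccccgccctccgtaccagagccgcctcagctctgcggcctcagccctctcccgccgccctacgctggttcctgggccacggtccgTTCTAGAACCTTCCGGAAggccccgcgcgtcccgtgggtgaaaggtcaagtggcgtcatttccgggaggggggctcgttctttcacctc
Hsph1: tgcagaTTCTGGAAAGTTCt
Hspb8: agccaggaGAAGTTTCtaggctcg
Bag3: ctctggatgggaccaGAAGTTTC
Counted back from the start, the match in Hspa1a and in Hspa1b begins at base -104, and the copies have the same base at 247 of the 250 positions. Hspb1 holds matches beginning at bases -117 and -97. The overlapping matches before Hspe1 begin at bases -89, -84 and -79. The window before 1 of the annotated Hspd1 starts lies on the opposite strand and shares 285 of its 300 bases with that of Hspe1. The same letters therefore stand between these divergent genes, although Hspd1 is grouped here with the constitutive chaperones. A match describes the letters only, and no binding was measured.

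Across all genes, the libraries held 14420494 to 21141582 counts each. Mitochondrially encoded transcripts took 1.56 to 2.19% of counts in sham and 1.90 to 2.18% in ASC, and crystallins 28.4 to 37.7% and 31.2 to 39.1%. Levels below are CPM scaled by TMM, a normalization that balances composition between libraries, and fold changes are ASC over sham from edgeR's quasi-likelihood test with p-values adjusted over all 15857 genes. In a bulk library, fewer cells of a type and less RNA per cell cannot be told apart.

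None of the 10 genes passed the adjusted threshold of 0.05 in edgeR, where 1.02% of all tested genes did. An unadjusted p under 0.05 was reached by 6 of the 10 (Hspa1a, Hspa1b, Dnajb1, Hspb8, Hspa8 and Hsp90ab1), all with higher means in ASC, where 6.82% of all tested genes reached it in that direction. Of the other tools, limma-voom called 0 of the 10 and 1.09% of all tested genes, and DESeq2 called 3 as higher, Hspa1a, Hspa1b and Dnajb1, where it called 2.12% of all tested genes higher. With no low-count filter edgeR called Hspa1a and Hspa8, where it called 2.26% of 31455 genes, and without robust estimation it called Hspa1b, where it called 1.19%. The log2 fold change was positive for 9 of the 10 genes and for 51.4% of all tested genes (8 of the 10 and 32.2% of all with library totals alone). The median log2 fold change was 0.38 over the 10 genes, 0.67 over the 6 inducible ones and 0.36 over the 3 constitutive ones, beside 0.01 over all tested genes. For Hspa1a and Hspa1b the 4 ASC libraries all lay above the 4 sham libraries, as they did for 3.39% of all tested genes. None of the 10 had all ASC libraries below all sham libraries, as 5.67% of all tested genes did. Of all tested genes, 0.391% were called lower in ASC.

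Hspa1b and Hspa1a encode the stress-inducible cytosolic HSP70, the chaperone whose transcripts are low at rest and climb steeply after heat shock. Hspa1b (ENSMUSG00000090877) stood at 9.69, 33.2, 19.8 and 18.6 CPM in the 4 sham libraries and at 61.2, 43.7, 54.4 and 73.6 CPM in the 4 ASC libraries, in order of replicate number. The highest sham library, sham 2, was below the lowest ASC library, ASC 2. The means were 20.3 ± 9.68 and 58.2 ± 12.5 CPM (SD, n = 4), a log2 fold change of 1.52 (SE 0.36, 95% confidence interval 0.67 to 2.36, adjusted p = 0.118). Hspa1a (ENSMUSG00000091971) had 3.98, 8.69, 8.86 and 7.81 CPM in the sham libraries and 14.2, 10.7, 17.2 and 19.3 CPM in ASC, again without overlap. Its means were 7.34 ± 2.28 and 15.3 ± 3.74 CPM, with a log2 fold change of 1.06 (SE 0.26, interval 0.48 to 1.65, adjusted p = 0.0892). Of the 50-base words in the Hspa1a transcript, 58.8% also occur in Hspa1b, and the labels do not say how reads matching both were counted. The share of each copy is therefore uncertain. Counted as 1 gene, the copies had 27.6 ± 11.5 CPM in the sham libraries and 73.6 ± 15.8 CPM in ASC (log2 fold change 1.41, SE 0.33, adjusted p = 0.11). DESeq2 called both, with adjusted p = 0.00382 for Hspa1a and 1.33e-05 for Hspa1b at about the same fold changes.

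Dnajb1, the J-domain partner that delivers substrates to HSP70 and stimulates its ATPase, was above the sham range in 3 of 4 ASC libraries. It stood at 57.3, 59.7, 68.0 and 75.5 CPM in sham and at 181, 65.7, 141 and 115 CPM in ASC. ASC 2 lay inside the sham range. The means were 65.1 ± 8.31 and 126 ± 48.3 CPM (log2 fold change 0.95, SE 0.28, interval 0.30 to 1.60, adjusted p = 0.185). Without ASC 2 the log2 fold change was 1.16 with adjusted p = 0.00292, and 1.03% of all genes tested then were called higher.

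The remaining inducible genes had smaller differences, and their groups overlapped. Hsph1, the HSP110 nucleotide exchange factor that resets HSP70, had 31.6, 65.7, 48.6 and 43.8 CPM in the sham libraries and 63.6, 58.1, 49.2 and 51.2 CPM in ASC. All 4 ASC values lay within the sham range (log2 fold change 0.23, SE 0.20, adjusted p = 0.647). Hspb8, a small heat shock protein that works with the cochaperone Bag3 in selective autophagy, had 11.0, 11.3, 11.1 and 8.86 CPM in the sham libraries and 10.8, 12.9, 14.985 and 17.0 CPM in ASC. ASC 1 was inside the sham range and the other ASC libraries were above it (0.39, SE 0.15, adjusted p = 0.263). Hsp90aa1, the inducible cytosolic HSP90, had 363, 460, 444 and 449 CPM in the sham libraries and 580, 435, 539 and 435 CPM in ASC. ASC 1 and ASC 3 were above all sham libraries, and ASC 2 and ASC 4 were among them (0.21, SE 0.13, interval -0.07 to 0.50, adjusted p = 0.482).

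**Figure D1:**
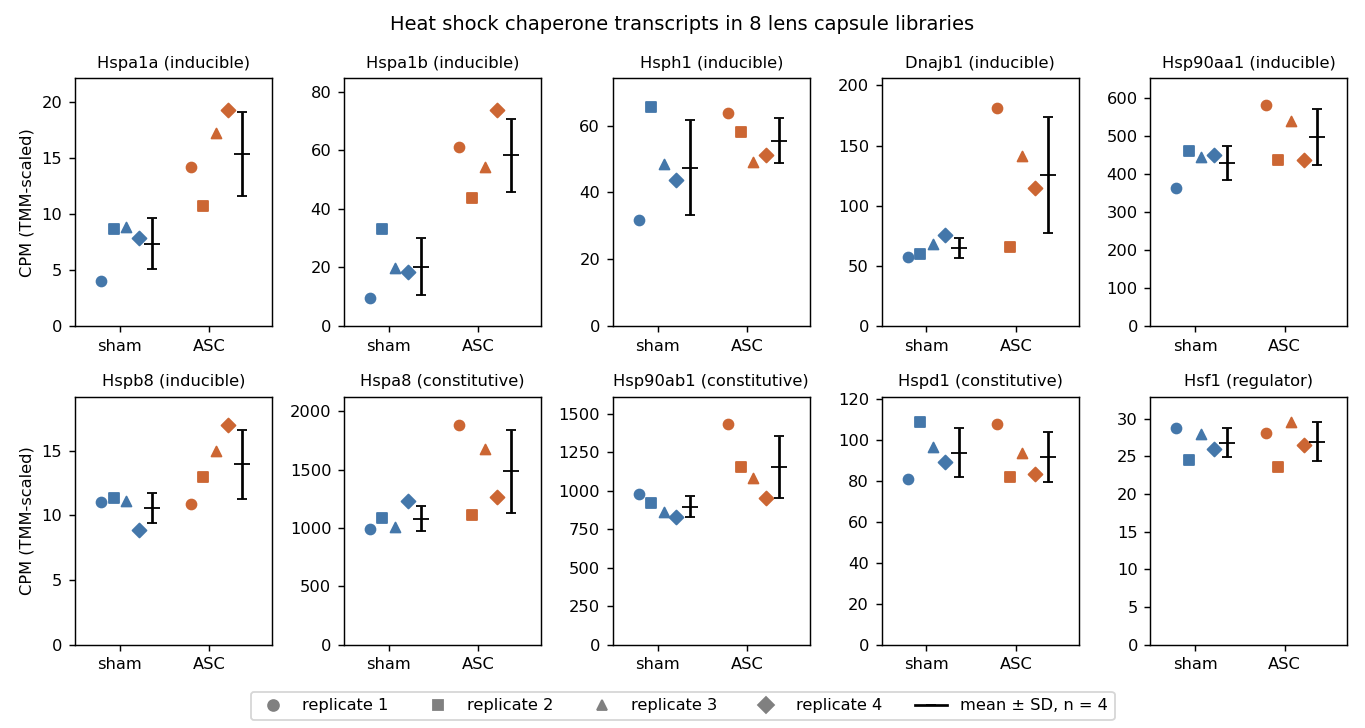
TMM-scaled CPM of the 10 genes (vertical axes from 0, each panel with its own scale) in 4 sham and 4 ASC libraries; each point is a library, its shape the replicate number, and the bar is the mean ± SD (n = 4). The groups are apart for Hspa1a and Hspa1b, while Hspd1 and Hsf1 have nearly the same mean in both groups.

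Among the constitutive chaperones, the abundant cytosolic pair had higher means in ASC and did not pass the test. Hspa8, the cognate HSP70 that folds new proteins and uncoats clathrin vesicles, had 991, 1085, 1006 and 1227 CPM in the sham libraries and 1884, 1109, 1673 and 1269 CPM in ASC. ASC 2 alone lay inside the sham range (log2 fold change 0.46, SE 0.17, interval 0.09 to 0.83, adjusted p = 0.235). Hsp90ab1, the constitutive HSP90 that matures kinases and steroid receptors, had 977, 923, 862 and 828 CPM in the sham libraries and 1433, 1153, 1084 and 952 CPM in ASC. Here ASC 4 alone lay inside the sham range (0.36, SE 0.14, interval 0.06 to 0.67, adjusted p = 0.253). In absolute terms Hspa8 had the widest gap of the 10 genes, 1077 ± 108 CPM in sham against 1484 ± 357 CPM in ASC. Hspa8, Hsp90ab1 and Hsp90aa1 made up 90.2% of the summed CPM of the 9 chaperones, and that sum was 2648 ± 120 CPM in the sham libraries and 3497 ± 644 CPM in ASC.

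Hspd1 and Hsf1 had fold changes near 1. Hspd1, the HSP60 chaperonin of mitochondria, had 80.8, 109, 96.7 and 89.2 CPM in the sham libraries and 108, 82.1, 93.6 and 83.3 CPM in ASC. The groups overlapped throughout (log2 fold change -0.03, interval -0.29 to 0.22, adjusted p = 0.932). Hsf1, the factor that drives the inducible genes and is mainly controlled after translation, had 28.7, 24.5, 28.0 and 26.0 CPM in the sham libraries and 28.2, 23.6, 29.6 and 26.5 CPM in ASC. Its log2 fold change was 0.01 (interval -0.21 to 0.23, adjusted p = 0.985), and the upper bound of the interval is 1.17-fold. Activity and protein of Hsf1 were not measured. Scaled by library totals alone, Hsf1 stood at -0.13, with the median of all genes moving from 0.01 to -0.12. The other 9 genes kept their sign under that scaling.

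Per kilobase of exon (GENCODE M21 lengths, which may differ from the authors' annotation), the levels could be set in order. In sham, Hsp90ab1 led with 299 ± 21.998 CPM per kilobase, followed by Hspa8 with 250 ± 25.0 and Hsp90aa1 with 109 ± 11.3. Hspd1 followed with 35.5 ± 4.47 CPM per kilobase and Dnajb1 with 20.3 ± 2.59. Hspa1b with 7.24 ± 3.45, Hsph1 with 6.53 ± 1.94 and Hspb8 with 5.42 ± 0.59 CPM per kilobase did not differ beyond their spread. The lowest were Hsf1 at 3.78 ± 0.271 and Hspa1a at 2.47 ± 0.77 CPM per kilobase. The places of Hspa1a and Hspa1b depend on how reads matching both copies were counted. Each length covers all annotated exons of a gene, whichever of its transcripts were present, so the order is approximate. In ASC the mean of Dnajb1, 39.2 ± 15.1 CPM per kilobase, was above that of Hspd1 at 34.7 ± 4.55, by less than the spread of Dnajb1. Hspa1b reached 20.8 ± 4.47 CPM per kilobase in ASC, above Hsph1 at 7.64 ± 0.913.

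Inducible and constitutive relatives were then set against each other within each library, a measure that does not depend on the scaling between libraries. For HSP70, the summed Hspa1a and Hspa1b level was 1.38, 3.86, 2.85 and 2.15% of the Hspa8 level in sham and 4.0, 4.91, 4.28 and 7.33% in ASC. The lowest ASC library was just above the highest sham library. The means were 2.56% ± 1.05 and 5.13% ± 1.51 (SD, n = 4), a difference of 1.059 in the log2 ratio (two-sided exact permutation p = 0.0286, the smallest that 70 assignments of the libraries can give). Adjusted over the 2 ratios compared, this exact p was 0.0571. For HSP90, Hsp90aa1 stood at 37.2, 49.8, 51.5 and 54.3% of Hsp90ab1 in sham and at 40.5, 37.7, 49.7 and 45.7% in ASC. The groups overlapped through sham 1 alone, which lay below all ASC libraries. The other sham libraries lay above all of ASC, sham 2 just above ASC 3. The log2 ratio was lower in ASC by a mean difference of -0.14 (exact permutation p = 0.314, also 0.314 after adjustment). The mean share of the inducible member was thus higher in ASC for HSP70 and lower for HSP90, and neither difference passed the adjusted threshold. With 70 assignments and 2 ratios, that threshold can be passed only if both ratios give the smallest p. Not passing it therefore says little about the HSP70 difference. These percentages are of CPM and are not scaled to exon length. If reads matching both Hspa1a and Hspa1b were left uncounted, the HSP70 percentages are too low in both groups.

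**Figure D2:**
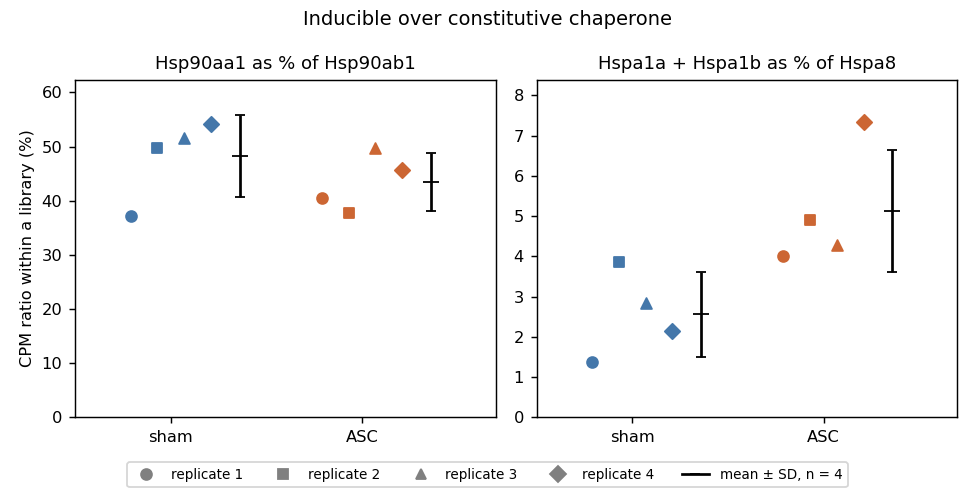
Inducible transcript as a percentage of its constitutive relative within each library (vertical axes from 0), for HSP90 on the left and HSP70 on the right, with the mean ± SD of 4 libraries per group. Percentages are of CPM, not scaled to exon length. The ASC points overlap those of sham for HSP90 and lie above all of them, from 4.0 to 7.33%, for HSP70.

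The wider chaperone network was covered by 9 lists with 130 genes in all, of which 118 were tested. Of these, 2 rose in ASC and 0 fell, Bag3 and Dnajb9, where 0.631% of all tested genes were called higher. An unadjusted p under 0.05 was reached by 23 in the higher and 6 in the lower direction, beside 6.82 and 7.90% of all tested genes, and the median log2 fold change of the 118 was 0.10. Bag3, the HSP70 cochaperone and partner of Hspb8, rose from 13.9 ± 1.36 to 21.5 ± 3.22 CPM (0.62, SE 0.13, adjusted p = 0.0422), with 18.2 CPM in the lowest ASC library and 15.1 in the highest sham library. Dnajb9, a J-domain protein of the endoplasmic reticulum, rose from 23.8 ± 3.55 to 37.3 ± 4.30 CPM (0.65, SE 0.12, adjusted p = 0.0327). Bag3 lost its call when any 1 of the 8 libraries was left out (adjusted p = 0.0518 to 0.109), by limma-voom and by library totals alone. Dnajb9 lost it without sham 1, sham 3, sham 4, ASC 1 or ASC 3 (highest adjusted p = 0.0926) and by library totals alone.

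Of 18 other chaperone and stress genes known as Hsf1 targets, Bag3 alone passed. The log2 fold change was positive for 15 of the 18 and 51.4% of all tested genes, or 10 and 32.2% with library totals alone. The list median was 0.26. Hspb1, named here after its values were seen, is a small heat shock protein that caps actin filaments and is a classic Hsf1 target. It had the widest fold change of all the chaperone genes tested here, with 33.0, 35.1, 58.8 and 66.8 CPM in the sham libraries and 779, 143, 432 and 475 CPM in ASC. Every ASC library was above every sham library, ASC 2 being the lowest, and the log2 fold change was 3.24 (SE 0.56, interval 1.91 to 4.58, adjusted p = 0.0602). Hspb1 passed in DESeq2 (adjusted p = 2.04e-07), in limma-voom (0.0493) and in edgeR without ASC 2 (0.00458) or without robust estimation. Hspe1, also named after its values were seen, is the HSP10 lid of the Hspd1 chaperonin and the divergent neighbour whose promoter sequence is printed above. Hspe1 had 34.7, 40.6, 31.6 and 50.2 CPM in the sham libraries and 66.9, 50.5, 58.1 and 59.8 CPM in ASC, apart by a small margin (0.58, SE 0.14, interval 0.28 to 0.89, adjusted p = 0.0738). Hspe1 passed in DESeq2 (adjusted p = 0.0116) and in edgeR without sham 4 (0.0334) or with no low-count filter (0.00011). For Hspd1 the corresponding value was -0.03, and the difference between Hspd1 and Hspe1 was not tested.

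**Figure D3:**
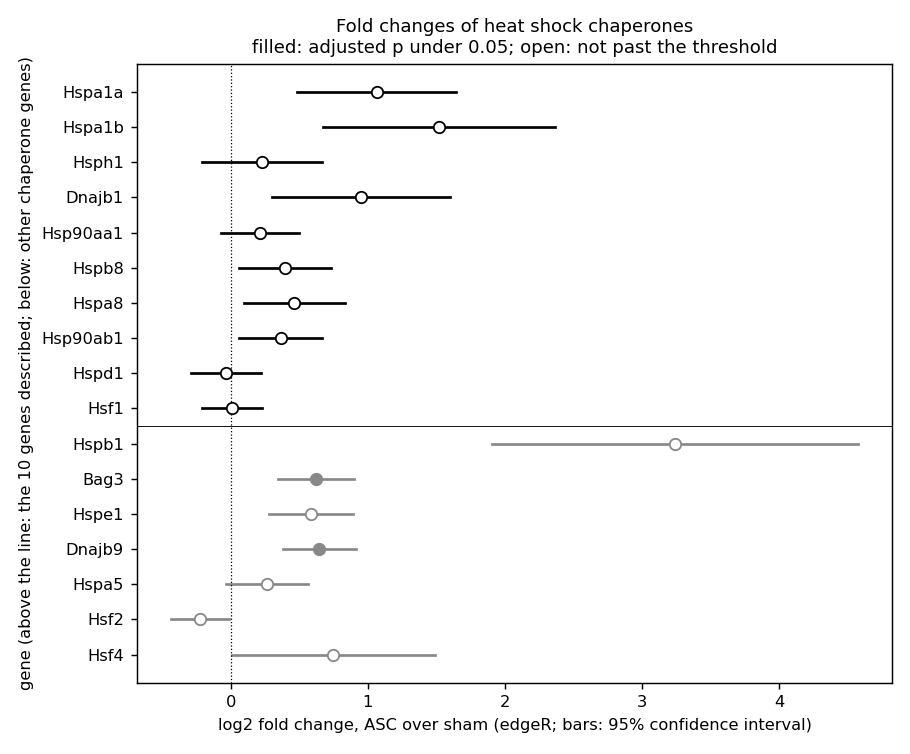
Log2 fold change of ASC over sham (horizontal axis) with its 95% confidence interval from edgeR, for the 10 genes above the line and 7 other chaperone or heat shock factor genes below it. Filled points passed the adjusted threshold (Bag3 and Dnajb9), and Hspb1 lies farthest to the right at 3.24.

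The other families stayed closer to the median of all genes. Of 11 further HSP70 and HSP110 genes 0 passed (0 in DESeq2 and in limma-voom, 1 at an unadjusted p below 0.05 in edgeR), with a median of 0.06, Hspa5 at 0.27 and Hspa4 at -0.02. Hsp90b1 of the endoplasmic reticulum stood at 0.19 and the mitochondrial Trap1 at -0.05. Of 41 J-domain genes Dnajb9 alone passed in edgeR and in DESeq2 (6 higher and 2 lower at an unadjusted p under 0.05 in edgeR), and the median was 0.05. Of 28 cochaperones of HSP70 and HSP90 Bag3 alone passed in edgeR (6 higher and 3 lower at an unadjusted p under 0.05), with a median of 0.11. DESeq2 called Bag3 and Bag6, both higher. Of 15 genes of the cytosolic chaperonin, its helper prefoldin and Hspe1, 0 passed in edgeR (3 at an unadjusted p under 0.05, and Hspe1 by DESeq2), with a median of 0.12, Tcp1 at 0.24 and Cct5 at 0.38. Of 14 chaperones of the endoplasmic reticulum Dnajb9 alone passed in edgeR (3 at an unadjusted p under 0.05, and Calr also by DESeq2 and limma-voom). The median was 0.15, and the log2 fold change was positive for 14 with TMM, 13 with upper-quartile scaling and 7 with library totals alone. Of all tested genes, 51.4, 48.2 and 32.2% were positive under these scalings, in the same order. Of 6 tested small heat shock proteins 0 passed in edgeR (2 at an unadjusted p under 0.05, and Hspb1 by DESeq2 and limma-voom), with a median of 0.12. The alpha crystallins, by far the most abundant small heat shock proteins here, had 143840 ± 27937 CPM in the sham libraries and 152490 ± 33403 CPM in ASC for Cryaa (0.08) and a log2 fold change of 0.11 for Cryab.

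Among heat shock factors, Hsf4, the family member that the lens uses for fibre differentiation, had 42.6, 24.8, 31.8 and 45.1 CPM in the sham libraries and 92.9, 34.8, 58.6 and 55.8 CPM in ASC. ASC 2 lay inside the sham range (log2 fold change 0.75, SE 0.32, adjusted p = 0.337). Hsf2 had 26.5 ± 0.687 CPM in the sham libraries and 22.7 ± 2.29 CPM in ASC (-0.23, adjusted p = 0.304), and the binding protein gene Hsbp1 stood at 0.02. Of the 4 genes tested on this list 0 passed in edgeR, DESeq2 or limma-voom (2 at an unadjusted p under 0.05).

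**Figure D4:**
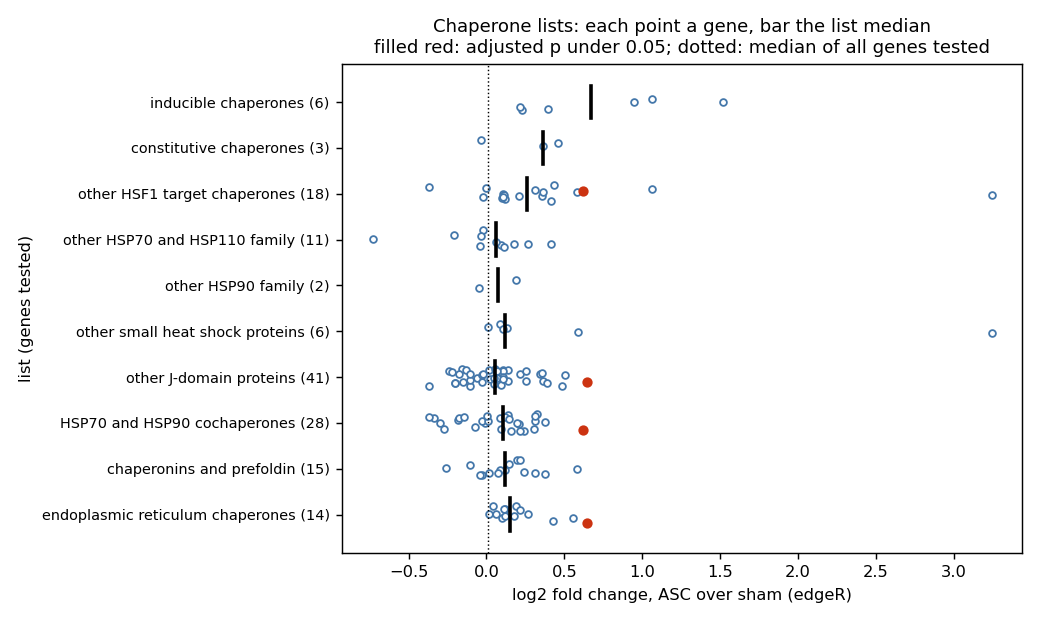
Log2 fold change of ASC over sham (horizontal axis) for every tested gene of the chaperone lists shown. The list median is a bar and the median of all tested genes is dotted. Genes on more than 1 list appear on each. Hsf1 and the list of other heat shock factor and factor-binding genes are not drawn. The median is 0.67 for the inducible and 0.36 for the constitutive chaperones and between 0.05 and 0.26 for the other lists.

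The 10 genes did not follow 1 order across the libraries. ASC 1 held the highest ASC value of 6 genes (Hspa8, Hsp90aa1, Hsp90ab1, Hsph1, Dnajb1 and Hspd1), and ASC 4 that of Hspa1a, Hspa1b and Hspb8. ASC 2 held the lowest ASC value of 6 genes, and sham 1 the lowest sham value of 7. The summed level of 14 lens fibre markers, from 54590 to 97980 CPM in sham and from 67480 to 144400 CPM in ASC, was also highest in ASC 1 and lowest in ASC 2, with ASC 3 and ASC 4 between them. Of the 10 genes, Dnajb1, Hspa8 and Hspd1 had the same order in ASC, with log2 fold changes of 0.95, 0.46 and -0.03, and so did Hsf4. None of these genes followed the fibre order in sham. There the fibre sum was highest in sham 4, then sham 1 (77490 CPM), sham 2 (57960 CPM) and sham 3 (54590 CPM). Dnajb1, Hspa8 and Hsf4 were also highest in sham 4, but sham 1 was lowest for Dnajb1, Hspa8 and Hspd1, and sham 2 for Hsf4. The part of fibre cells in these values was not tested. Of the fibre markers 2 rose in edgeR (Cryga and Cryge), where 0.631% of all tested genes were called higher. At an unadjusted p under 0.05, 6 were higher, beside 6.82% of all tested genes, and the median of the markers was 0.79. The log2 fold change was positive for 13 of the 14 markers, or 11 with library totals alone. Of all tested genes 51.4% were positive, or 32.2% with library totals alone.

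Other cell types and the early stress response also differed between the groups in places. The summed red cell markers ran from 40.05 to 62.8 CPM in sham and from 73.9 to 370 CPM in ASC, with 0 of 5 past the threshold and all 5 at an unadjusted p under 0.05. Of 8 corneal epithelial markers 4 were tested and 3 rose (Krt12, Krt5 and Krt6a), where 0.631% of all tested genes were called higher. The summed level of the 8 was 385 to 599 CPM in the sham libraries and 348 to 943 CPM in ASC. Krtdap was at 0 in all libraries. Pigment cell markers summed to 89.2 to 255 and 181 to 656 CPM (0 of 7 called by edgeR, 5 with an unadjusted p below 0.05, median log2 fold change 1.87), and 12 macrophage and leukocyte markers to 12.6 to 54.2 and 27.0 to 95.9 CPM (0 of 11 tested). Of these 11, 10 had a positive log2 fold change (median 0.87) and 0 an unadjusted p under 0.05. Neutrophil markers summed to at most 2.03 CPM, with Ly6g, Elane and Cxcr2 at 0. The sums of the 8 retinal markers overlapped (1078 to 4481 and 2100 to 3979 CPM), as did those of lens epithelium (5278 to 6011 and 5400 to 5769 CPM). All 8 retinal log2 fold changes were positive, also with library totals alone (median 0.51, 0 at an unadjusted p under 0.05). For the 8 lens epithelium markers the median was 0.03 with 0 at an unadjusted p under 0.05, and 1 lay lower in ASC without overlap. The 7 stroma markers summed to 347 to 433 and 343 to 447 CPM, with 0 of 5 tested genes called by edgeR, 2 at an unadjusted p under 0.05 and a median of 0.66. The 6 endothelial markers summed to 7.52 to 18.8 and 5.803 to 16.5 CPM (0 of 4 tested past the threshold or at an unadjusted p under 0.05). Of 19 immediate early genes, the transcripts first induced by stress and handling as well as injury, 9 rose. Their summed level was 222 to 383 CPM in the sham libraries and 1378 to 2230 CPM in ASC. At an unadjusted p under 0.05, 17 were higher, and 14 lay higher without overlap (median log2 fold change 3.19). Of all tested genes, 0.631% were called higher, 6.82% were higher at that p and 3.39% lay higher without overlap. The part of these cells and of the early response in the chaperone values was not tested.

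By likeness of pattern, the genes closest to the summed Hspa1a and Hspa1b level over the 8 libraries, among 9536 genes averaging a log2 CPM of 3 or more, were Gng12 (Pearson r = 0.985), Ctsd (0.972), Retsat (0.958), Ctsb (0.956) and Calr (0.954). None of the 5 passed the test in edgeR, with Calr, a calcium-binding chaperone of the endoplasmic reticulum, at 0.42 (adjusted p = 0.0548). Calr passed in DESeq2 (adjusted p = 0.000577) and limma-voom (0.0402), and in edgeR with upper-quartile scaling (0.0484), a minimum of 1 CPM in 4 libraries (0.048) or no low-count filter (0.02). After the group means were removed the closest were Cthrc1 (0.984), Nbeal1 (0.979), Glmp (0.968), Trmt2b (0.967) and Cab39l (0.965), with 0 genes shared between the lists. These values describe 8 libraries that share their scaling, and the highest of so many correlations are high by selection.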

How the data were processed

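RNA sequencing counts of 8 mouse lens capsule libraries were used, 4 sham and 4 ASC, grouped by the treatment label. The authors deposited raw whole-number read counts per gene. CASAVA, HISAT2 2.0.5, fastp and featureCounts 1.5.0-p3 are named, per the submitters' processing notes. Build, annotation, strand setting and the treatment of reads matching several genes were not given in the sources used here. Symbols were matched for 54409 of 54532 identifiers.

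Genes were kept by filterByExpr, scaled by TMM and fitted in edgeR 4.0.16 (quasi-likelihood F test, robust) in R 4.3.3 without covariates. P-values were adjusted by Benjamini-Hochberg over the 15857 genes tested. A standard error is the log2 fold change divided by the square root of F. The script was tested on simulated data. Ratios were compared by exact permutation. DESeq2 1.42.0, limma-voom (limma 3.58.1), other scalings and filters, the replicate block and each library left out were alternatives. Each gene of the 10 is named whatever its result; from each other list, up to 4 genes that passed and averaged a log2 CPM of 1 or more or else the 2 most abundant are named, as are Hsf2 and Hsf4. The genes and lists were chosen with earlier results of these data known. Depth was 14420494 to 21141582 counts, without molecular identifiers. Of the listed genes, 1 is counted but its own values are not reported here.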

Additional observations from a re-analysis of the deposited data

Results flagged for a closer look

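In each group of 4, a library was looked at again where its gap to the nearest of the others passed Dixon's 95% limit for its share of the group's range, which chance alone gives in about 1 in 20 groups. Of 62 groups tested, 3 met this. Hsp90aa1 had 363 CPM in sham 1 and 444 to 460 CPM in the other sham libraries. Hspb8 had 8.86 CPM in sham 4 and 11.0 to 11.3 CPM in the others. Calr had 172 CPM in ASC 4 and 168 to 169 CPM in the other ASC libraries, a narrow range.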

How the results depend on the processing

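The 10 genes gave 188 values under the alternatives, of which 171 kept their direction and side of the threshold. The number past the threshold was 0 in edgeR, 3 with DESeq2, 2 with no low-count filter and 1 without robust estimation. It was 0 to 1 with single libraries left out. Among these values, DESeq2 called Hspa1a at 1.067, Hspa1b at 1.523 and Dnajb1 at 0.952. With no low-count filter Hspa1a (1.047) and Hspa8 (0.450) passed, and without robust estimation Hspa1b at 1.517. With single libraries left out Dnajb1 ranged from 0.721 to 1.159, Hspd1 from -0.121 to 0.038 and Hsf1 from -0.042 to 0.064. Hspd1 turned positive without sham 2 (0.038), ASC 2 (0.014) or ASC 4 (0.007). Hsf1 turned negative with library totals alone (-0.125), upper-quartile scaling (-0.013) or no low-count filter (-0.006), and without sham 2 (-0.042), sham 4 (-0.008), ASC 1 (-0.015) or ASC 3 (-0.041). The other chaperone genes past the threshold numbered 2 in edgeR, 8 with DESeq2, 8 with no low-count filter, 0 with library totals alone and 0 to 2 with single libraries left out. Near 0, Hsbp1 turned negative with library totals alone (-0.092), upper-quartile scaling (-0.003), without sham 3 (-0.100) and without ASC 2 (-0.002), with 0.093 as its highest value when single libraries were left out. Hspa4 turned positive without sham 2 (0.057) or ASC 3 (0.025), with -0.071 as its lowest value on leaving out single libraries and -0.150 with library totals alone. Trap1 turned positive without sham 2 (0.010), with -0.101 as its lowest such value and -0.171 with library totals alone. Cryaa turned negative with library totals alone (-0.040) and without sham 3 (-0.007) or ASC 3 (-0.034), with 0.190 as its highest such value, and Cryab turned negative with library totals alone (-0.013). Over all genes, edgeR called 162, DESeq2 593, edgeR with no low-count filter 712, and edgeR with single libraries left out 56 to 228. The cause of these changes was not tested.

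The log2 HSP70 ratio stayed between 0.662 and 1.290 and the HSP90 ratio between -0.264 and -0.080 under the alternatives run for them. The smallest exact p of 70 assignments (0.0286) and of sign flips (0.125) leaves the adjusted threshold hardly reachable, so their p-values say nothing of stability. The labels number the replicates alike in both groups, but same-numbered libraries deviated together with correlations of 0.217, 0.057, 0.214 and -0.090, so the numbers were not taken as pairs. With the replicate block, 0 of the 10 genes passed and 3 other chaperone genes did, among them Dnajb9 and Hsf4 (0.704, adjusted p = 0.047), while Bag3 did not (0.614, adjusted p = 0.0884). With this block the HSP70 ratio was 1.059 and the HSP90 ratio -0.145 (exact sign-flip tests).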

Other observations

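Ubb and Chordc1, named after their values were seen, gave further values of the stress response. Ubb, a polyubiquitin gene whose product tags damaged proteins, had 554 ± 72.6 CPM in the sham libraries and 748 ± 77.2 CPM in ASC (SD, n = 4), with no overlap between the groups (log2 fold change 0.43, SE 0.13, adjusted p = 0.14 in edgeR). ASC 2, the lowest ASC library for Hspb1, Dnajb1 and Hspa1b, was the highest for Ubb. DESeq2 called Ubb as higher (adjusted p = 0.0179), as did edgeR with no low-count filter. Chordc1, an HSP90 cochaperone known as an Hsf1 target, had the opposite sign, with 45.4 ± 7.01 CPM in the sham libraries and 35.1 ± 2.76 CPM in ASC and no overlap between the groups (-0.37, SE 0.11, adjusted p = 0.154 in edgeR). Chordc1 was called lower by edgeR with no low-count filter (adjusted p = 0.0449). Among all tested genes 3.39% lay higher and 5.67% lower in ASC without overlap.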
